A study of Mus musculus with 6 samples.

Results

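The collagen genes were taken as every gene whose symbol in the platform annotation has the form of a collagen chain (Col, a type number, a, a chain number), read from probes that carry 1 gene symbol. They numbered 44 of 19938 genes measured. The brightest probe was used for Col6a5 and Col6a6, which had several, and the other 42 had 1 probe each. RNA came from whole lung buds of mouse embryos at E11.5, on a mixed C57BL/6, 129X1 and 129S1 background. The 3 control samples carried Shhcre, which expresses Cre recombinase from the Sonic hedgehog locus, active in the lung epithelium. The 3 samples called DKO carried Shhcre with Hdac1 fl/fl and Hdac2 fl/fl, so that Cre removes both histone deacetylase genes where it is active. Both groups therefore carried Cre, and the mesenchyme, vessels and blood of the bud, which were measured together with the epithelium, were not the target of the deletion. Nothing in the labels tells single embryos from pools, and the p-values cover only the scatter among these 6 samples, part of which may be technical.

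Collagens are secreted proteins built from 3 chains wound into a triple helix. Fibrillar collagens form the cables of connective tissue, type IV collagens form the sheet-like network of basement membranes beneath epithelium and around vessels, and further families decorate fibrils, form beaded filaments or span the cell membrane. In the developing lung the mesenchyme makes most fibrillar collagen, and the basement membrane between epithelium and mesenchyme is remodelled as the buds branch. The comparison addressed which genes these deacetylases regulate in the early lung, and it is described here for the collagen chains and for the genes that make, organise, bind and cleave them.

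Values are log2 expression values per array, and changes are DKO minus control with limma's standard error (SE), 95% confidence interval and a p-value adjusted over all 19938 genes, with 0.05 as the threshold. Of the targeted genes, Hdac1 (the brighter of 2 probes) read 11.48, 11.49 and 11.52 in controls 1 to 3 and 11.20, 11.23 and 11.23 in DKO 1 to 3. This was a fall of -0.28 (SE 0.05, adjusted p = 0.0193). That call was lost when control 1, 2 or 3, DKO 1 or DKO 3 was left out (adjusted p = 0.0517 to 0.112). Hdac2 read 11.83, 11.69 and 11.81 in control and 11.74, 11.77 and 11.70 in DKO, and did not pass (-0.04, adjusted p = 0.845). The position of the probes of both genes relative to the floxed exons is unknown here. Hdac2 therefore does not check the genotype, and the fall of Hdac1 given above rests on 1 of its 2 probes. Between any pair of arrays the correlation over all genes was 0.995 to 0.999. DKO 2 stood apart for the collagen genes: it held the highest of the 6 values for 23 of the 44 (52.3%), against 33.3% of all genes. The part of this array in the results was not tested. Calls that differ without it are given below for the collagen genes and for the genes that act on collagen.

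None of the 44 collagen genes passed the threshold (limma, lowest adjusted p = 0.0925), while 2.41% of all genes did. The unadjusted p was under 0.05 for 7 collagen genes (15.9%), against 12.8% of all genes. The DKO and control values did not overlap for 7 collagen genes (15.9%), against 18.8% of all genes. In 1 of these DKO was higher (8.36% of all genes) and in 6 it was lower (10.4% of all genes). The share of collagen genes was thus near the background on all 3 counts. The changes lay between -0.39 (Col12a1) and 0.21 (Col6a3), with 24 above 0 and 20 below, and the median change was 0.01, against 0.00 over all genes. The median size of a change, whatever its sign, was 0.06 for the collagen genes and 0.06 for all genes.

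The intervals show how large a change in the signal of the whole bud these arrays leave room for. A larger change confined to 1 cell type can lie inside them. No detection call was given, so a narrow interval of a dim probe may reflect background. Without the dimmest 50% of genes, 26 of the 44 collagen genes remained. For 38 of the 44 collagen genes (86.4%), the whole 95% interval lay inside a 1.25-fold change in either direction, a log2 value of 0.32. The same held for 87.5% of all genes. For 43 of the 44 it lay inside a 1.5-fold change. The exception was Col12a1, whose interval reached -0.62. The SEs of the collagen genes ran from 0.05 to 0.13. In whole buds, fewer cells of a type and less RNA per cell cannot be told apart.

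**Figure D1:**
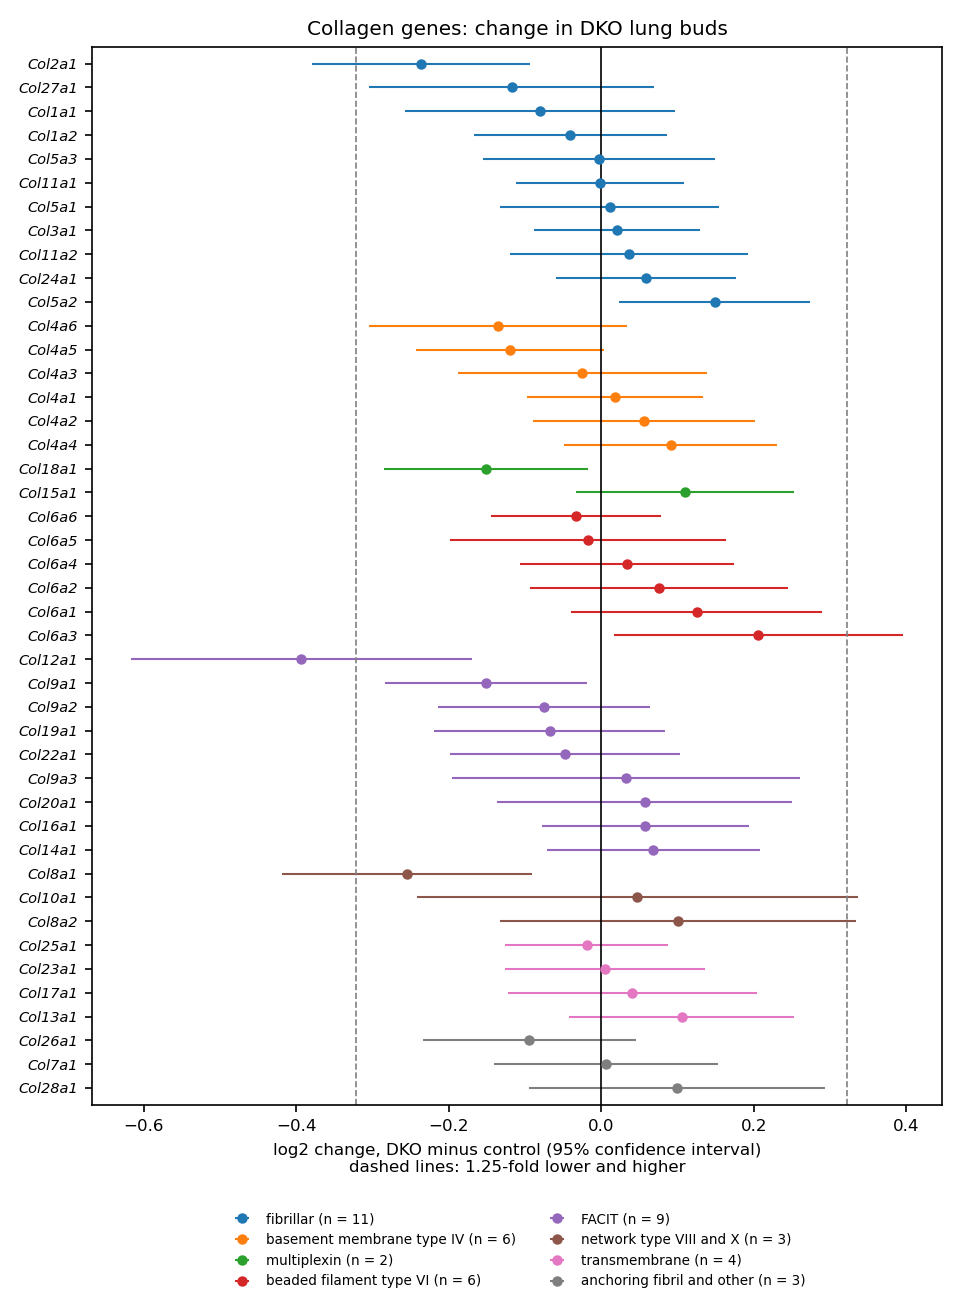
Log2 change (DKO minus control, x axis) of each of the 44 collagen genes, as points with 95% confidence intervals from limma, coloured by class, with 3 arrays per group; dashed lines mark a 1.25-fold change. Points lie between -0.39 for Col12a1 and 0.21 for Col6a3, and 38 intervals lie wholly between the dashed lines.

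Of the 11 fibrillar genes, 0 passed by limma and 2 had an unadjusted p under 0.05, and the chains of types I and III, the main fibrils of soft connective tissue, were close in both groups. Col1a1 and Col1a2 encode the chains that together form type I collagen. Col1a1 (probe 10380419) read 11.00, 11.04 and 10.80 in controls 1 to 3 and 10.98, 10.85 and 10.77 in DKO 1 to 3, so the groups overlapped and control 3 lay nearer to the DKO arrays. Its change was -0.08 (SE 0.08, interval -0.26 to 0.10, adjusted p = 0.779). Col1a2 (probe 10536220) read 11.22, 11.31 and 11.15 in control and 11.20, 11.18 and 11.18 in DKO, with the 3 DKO values inside the control range. Its change was -0.04 (interval -0.17 to 0.09, adjusted p = 0.859). Col3a1 (probe 10346015), whose single chain forms type III collagen, had the narrow control range of 10.49 to 10.55 and a DKO range of 10.52 to 10.55. Its change was 0.02 (SE 0.05, interval -0.09 to 0.13, adjusted p = 0.925).

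Type V collagen regulates the diameter of type I fibrils, and its chains gave different values. Col5a2 (probe 10354309) read 9.45, 9.47 and 9.42 in control and 9.68, 9.54 and 9.56 in DKO. Every DKO value was above every control value, with DKO 1 the highest, and Col5a2 was the 1 collagen gene with that order. Its means were 9.45 ± 0.02 (SD, n = 3) and 9.60 ± 0.07 (SD, n = 3), and the change of 0.15 (SE 0.06, interval 0.02 to 0.27) did not pass (adjusted p = 0.280, and 0.137 to 0.623 with 1 array left out). Its partner chain Col5a1 overlapped between groups, at 9.03, 9.00 and 8.92 in control and 9.00, 9.09 and 8.89 in DKO (0.01, interval -0.13 to 0.15). Col5a3, the third type V chain, ranged from 7.75 to 7.87 in control and from 7.70 to 7.91 in DKO (interval -0.15 to 0.15). Whether the chains differ in their change was not tested.

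Col2a1, which encodes the main fibrillar collagen of cartilage and is also made by other embryonic tissues, had the largest change of the fibrillar class. It read 9.22, 9.21 and 9.14 in controls 1 to 3 and 8.84, 9.05 and 8.97 in DKO 1 to 3 (probe 10432045). All DKO values lay below all control values, with DKO 1 the lowest. The means were 9.19 ± 0.04 (SD, n = 3) and 8.95 ± 0.10 (SD, n = 3), and the change was -0.24 (SE 0.06, interval -0.38 to -0.09), which corresponds to 1.18-fold and did not pass (adjusted p = 0.112). Without DKO 2 the change was -0.28 and passed (adjusted p = 0.0306), and without each of the other arrays it did not pass (adjusted p up to 0.358). It also passed with array weights (adjusted p = 0.0116) and without the dimmest 50% of genes (0.0447). Type XI collagen lies inside type II fibrils, and type IX on their surface. Col11a1 read 8.81, 8.83 and 8.83 in control and 8.82, 8.78 and 8.86 in DKO, with an interval of -0.11 to 0.11. Col11a2 read 8.33, 8.38 and 8.33 in control and 8.26, 8.52 and 8.37 in DKO (0.04, interval -0.12 to 0.19). The values of both type XI chains thus overlapped between the groups while those of Col2a1 did not. The last fibrillar genes were Col24a1 (0.06, interval -0.06 to 0.18) and Col27a1 (-0.12, interval -0.30 to 0.07). DKO 1 gave the lowest value of Col27a1, 9.06, and DKO 2 the highest, 9.40.

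The 6 type IV genes are arranged in the genome as pairs that start close together and run in opposite directions, so the start regions of 2 pairs are shown. In the RefSeq promoter table of GRCm38.p6, the starts of Col4a1 and Col4a2 lie 21 bases apart on chromosome 8 and their windows share 78 bases. The first sequence runs from one start to the other on the plus strand (chr8:11312805-11312826). Col4a2, on the plus strand, starts at 11312805, and Col4a1, on the minus strand, starts at 11312826. These bases therefore lie from each start onwards, inside both annotated transcripts, and before neither gene. The starts of Col4a5 (plus strand) and Col4a6 (minus strand) on chromosome X lie 1343 bases apart, and the 250 bases before each start are printed 5′ to 3′ on the strand of the gene (chrX:141475169-141475418 and chrX:141474077-141474326). Capitals mark matches, on either strand, to any of 3 short motifs: the CCAAT box, the GC box with the letters GGGCGG, and the TATA box with the letters TATAAA.
Col4a1 to Col4a2: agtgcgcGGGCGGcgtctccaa
Col4a5: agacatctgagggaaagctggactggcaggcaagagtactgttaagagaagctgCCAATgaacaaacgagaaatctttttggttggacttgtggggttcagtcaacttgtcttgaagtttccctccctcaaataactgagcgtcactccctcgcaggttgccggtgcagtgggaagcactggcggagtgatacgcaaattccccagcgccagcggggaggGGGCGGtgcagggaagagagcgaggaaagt
Col4a6: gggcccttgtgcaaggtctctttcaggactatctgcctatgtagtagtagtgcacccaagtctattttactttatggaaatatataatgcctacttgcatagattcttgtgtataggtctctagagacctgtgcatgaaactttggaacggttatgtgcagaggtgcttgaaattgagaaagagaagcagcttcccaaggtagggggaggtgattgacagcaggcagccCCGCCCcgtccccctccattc
A GGGCGG match lay in all 3 stretches, of which the first lies after both starts and the others before theirs. It was on the reverse strand (CCGCCC) before Col4a6, where it began 21 bases before the start. Before Col4a5 it began 30 bases before the start. A match is a description of these letters, and no factor binding was measured.

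Of the 6 type IV genes, 0 passed by limma and 0 had an unadjusted p under 0.05, and all 6 intervals lay inside a 1.25-fold change. Col4a1 and Col4a2, which share the stretch above and encode the chains of the common basement membrane network, gave like values. Col4a1 (probe 10576973) read 9.02, 9.00 and 9.00 in control and 9.00, 9.09 and 8.98 in DKO (0.02, interval -0.10 to 0.13, adjusted p = 0.940). Col4a2 (probe 10570068) read 8.75, 8.74 and 8.64 in control and 8.68, 8.87 and 8.73 in DKO (0.06, interval -0.09 to 0.20, adjusted p = 0.816). For both genes the highest value was that of DKO 2. Col4a5 and Col4a6, whose chains assemble with each other in a further basement membrane network, had the lowest changes of the class. Col4a5 (probe 10602105) read 8.21, 8.28 and 8.21 in control and 8.08, 8.08 and 8.19 in DKO, the 1 type IV gene whose groups did not overlap (-0.12, interval -0.24 to 0.00, adjusted p = 0.409). Col4a6 (probe 10607012) read 7.60, 7.61 and 7.58 in control and 7.34, 7.63 and 7.41 in DKO. DKO 1 and DKO 3 lay below all controls and DKO 2 above them, and the change was -0.14 (SE 0.07, interval -0.30 to 0.03, adjusted p = 0.529, and 0.0507 without DKO 2). Col4a3 and Col4a4, the chains of mature kidney and lung basement membranes together with Col4a5, stood at -0.02 (interval -0.19 to 0.14) and 0.09 (interval -0.05 to 0.23).

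Col15a1 and Col18a1 encode multiplexins, collagens with many breaks in the helix that lie in the basement membrane zone, and Col18a1 is the source of endostatin. Col18a1 (probe 10370259) read 8.88, 8.88 and 8.85 in control and 8.61, 8.77 and 8.78 in DKO. The DKO values all lay below the controls, DKO 1 by most, and the change was -0.15 (SE 0.06, interval -0.28 to -0.02, adjusted p = 0.310). Col15a1 overlapped between groups, at 8.97, 9.01 and 8.89 in control and 9.04, 9.17 and 8.99 in DKO, with a difference of 0.11 (SE 0.06, interval -0.03 to 0.25, adjusted p = 0.551).

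Type VI collagen forms beaded filaments in the matrix around cells, from the chains of Col6a1, Col6a2 and Col6a3. Of the 6 type VI genes, 0 passed by limma and 1 had an unadjusted p under 0.05. Col6a3 (probe 10356520) had the highest change of all 44 collagen genes and read 8.18, 8.21 and 8.15 in control and 8.54, 8.44 and 8.19 in DKO. DKO 1 and DKO 2 lay above all controls, and DKO 3 lay among them. The means were 8.18 ± 0.03 (SD, n = 3) and 8.39 ± 0.18 (SD, n = 3), and the change was 0.21 (SE 0.08, interval 0.02 to 0.40, adjusted p = 0.340). Without DKO 3 the change was 0.31 (adjusted p = 0.0637), and without DKO 1 it was 0.13. Col6a1 read 8.76, 8.85 and 8.59 in control and 8.85, 8.92 and 8.81 in DKO (0.13, interval -0.04 to 0.29). Col6a2 read 9.08, 8.98 and 8.93 in control and 9.14, 9.16 and 8.92 in DKO (0.08, interval -0.09 to 0.24). The changes of all 3 chains were above 0 and none passed. The related genes Col6a4, Col6a5 and Col6a6 lay between -0.03 and 0.03. The dimmer probes of Col6a5 and Col6a6 gave 0.05 and 0.00, against -0.02 and -0.03 for the brighter ones.

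The fibril-associated collagens (FACIT) bind the surface of fibrils and do not form fibrils themselves. Of these 9 genes, 0 passed by limma and 2 had an unadjusted p under 0.05, and they held the lowest change of all collagen genes, in Col12a1. Type XII collagen coats type I fibrils in dense connective tissue. Col12a1 (probe 10595211) read 8.31, 8.35 and 8.12 in controls 1 to 3 and 8.08, 7.79 and 7.72 in DKO 1 to 3. The groups did not overlap, but control 3 and DKO 1 were close. The means were 8.26 ± 0.12 (SD, n = 3) and 7.86 ± 0.19 (SD, n = 3), and the change was -0.39 (SE 0.10, interval -0.62 to -0.17), which corresponds to 1.31-fold and did not pass (adjusted p = 0.0925). It passed with an intensity trend (adjusted p = 0.0484) and with array weights (0.0038). Without DKO 1 it was -0.50 and passed (adjusted p = 0.0192), and over all single omissions the adjusted p ran from 0.0192 to 0.313. Col14a1, which encodes the related type XIV chain, read 9.36, 9.43 and 9.35 in control and 9.54, 9.45 and 9.35 in DKO (0.07, interval -0.07 to 0.21).

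Type IX collagen is built from the chains of Col9a1, Col9a2 and Col9a3. Col9a1 (probe 10345101) read 8.21, 8.18 and 8.09 in control and 7.96, 8.08 and 7.98 in DKO, with all DKO values below the controls but DKO 2 close to control 3. Its change was -0.15 (SE 0.06, interval -0.28 to -0.02, adjusted p = 0.305). Col9a2 overlapped, at 8.79, 8.85 and 8.71 in control and 8.66, 8.80 and 8.66 in DKO (-0.08, interval -0.21 to 0.06). Col9a3 read 8.68, 8.80 and 8.58 in control and 8.59, 8.96 and 8.60 in DKO (0.03, SE 0.10, interval -0.20 to 0.26), where DKO 2 was the highest array. Col9a1, like Col2a1, is a gene of cartilage. Of 12 cartilage markers other than collagens, limma called 0 (lowest change -0.19, highest 0.16). The unadjusted p was under 0.05 for 4 (33.3%), against 12.8% of all genes. These 4 were Matn4 (-0.19), Sox6 (-0.17), Sox9 (-0.15) and Hapln1 (0.16). Their median change was -0.01. Of the 12 changes, 7 were below 0 and 5 above. Among the other markers were Matn1 at -0.01 and Acan at -0.01. The notochord and floor plate also make type II collagen. Of 5 markers of these tissues measured, 2 fell (40%, against 1.38% of all genes). These were Shh (-0.59, SE 0.08, adjusted p = 0.00813) and Foxa2 (-0.32, SE 0.06, adjusted p = 0.0274). All 5 changes were below 0, with a median of -0.15. Their mean level per array was 8.10 to 8.15 in control and 7.82 to 7.97 in DKO. Shh and Foxa2 are also made by lung epithelium, and Foxa2 is counted in the lung epithelium list too. The Shh call was lost without control 2 (adjusted p = 0.0532), and the Foxa2 call without control 1, 2 or 3 or DKO 1 (adjusted p = 0.0604 to 0.141). The part of these tissues in the values of Col2a1 and Col9a1 was not tested. The other FACIT genes, Col16a1, Col19a1, Col20a1 and Col22a1, lay between -0.07 and 0.06.

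**Figure D2:**
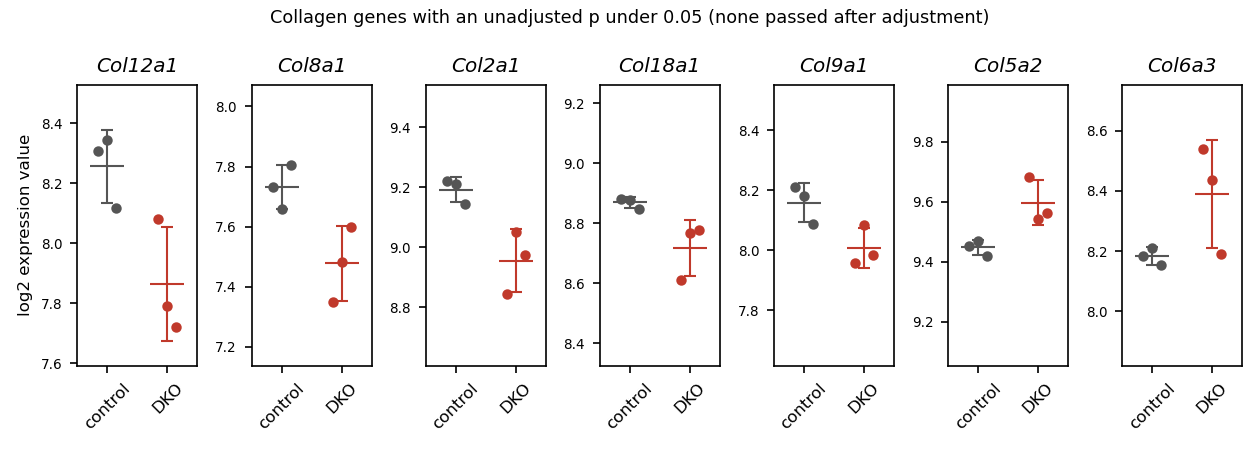
Log2 expression value (y axis, one scale length in every panel) of the 7 collagen genes with an unadjusted p under 0.05, in the 3 control (grey) and 3 DKO (red) arrays; points are arrays in the order 1 to 3, the wide bar is the mean and the error bar the SD. The groups do not overlap for 6 of the 7, the exception being Col6a3, and the adjusted p-values ran from 0.0925 for Col12a1 to 0.340 for Col6a3.

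Among the short-chain network collagens, Col8a1 had the second lowest change of all collagen genes. Type VIII collagen is made by vessels, smooth muscle and the corneal membrane. Col8a1 (probe 10440091) read 7.73, 7.66 and 7.80 in control and 7.35, 7.48 and 7.60 in DKO, with no overlap and DKO 1 the lowest. The means were 7.73 ± 0.07 (SD, n = 3) and 7.48 ± 0.13 (SD, n = 3), and the change was -0.25 (SE 0.07, interval -0.42 to -0.09, adjusted p = 0.136, and 0.0928 to 0.423 with 1 array left out). Its partner Col8a2 overlapped widely, at 7.35, 7.23 and 7.11 in control and 7.12, 7.53 and 7.33 in DKO (0.10, SE 0.10, interval -0.13 to 0.33). Col10a1, which marks hypertrophic cartilage, had the largest SE of the collagen genes, 0.13. Its control values were 6.62, 6.59 and 6.58, and DKO 2 read 6.99 where DKO 1 read 6.39 and DKO 3 read 6.56 (0.05, interval -0.24 to 0.34).

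The 4 transmembrane collagens and the 3 remaining genes also held 0 calls by limma, and 0 had an unadjusted p under 0.05. Col17a1, the collagen of hemidesmosomes, read 7.64, 7.70 and 7.51 in control and 7.57, 7.78 and 7.62 in DKO (0.04, interval -0.12 to 0.20). Col7a1, which forms the anchoring fibrils beneath stratified epithelium, stood at 0.01 (interval -0.14 to 0.15). Of the 8 markers of basal and stratified epithelium, among them Trp63 at 0.06 and Krt5 at 0.02, 0 passed by limma. The 1 with an unadjusted p under 0.05 was Dst, at -0.15. Of the 8 changes, 4 were above 0 and 4 below, between -0.15 and 0.16 with a median of 0.01. The other transmembrane genes were Col13a1 (0.11, interval -0.04 to 0.25), the largest of its class, Col23a1 (0.00) and Col25a1 (-0.02). The control range of Col25a1 was 8.08 to 8.10 and the DKO range 8.04 to 8.09. Col26a1 stood at -0.09 (interval -0.23 to 0.04) and Col28a1 at 0.10 (interval -0.10 to 0.29).

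The lowest and highest values of the collagen genes were spread unevenly over the arrays. Control 3 held the lowest of the 6 values for 13 of the 44 (29.5%), against 15.4% of all genes, and control 2 held it for 0, against 11.8%. DKO 1 was the lowest for 15 (34.1%), close to its share of all genes, and DKO 3 for 11 (25.0%), against 12.5%. The median collagen gene stood 0.09 above the control mean in DKO 2, and at -0.05 in DKO 1 and -0.03 in DKO 3. Over all genes these medians were 0.03, -0.03 and 0.00. In controls 1 to 3 the collagen medians were 0.01, 0.03 and -0.05. DKO 2 thus lay above the 3 controls, DKO 3 lay within their range and DKO 1 was level with control 3.

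**Figure D3:**
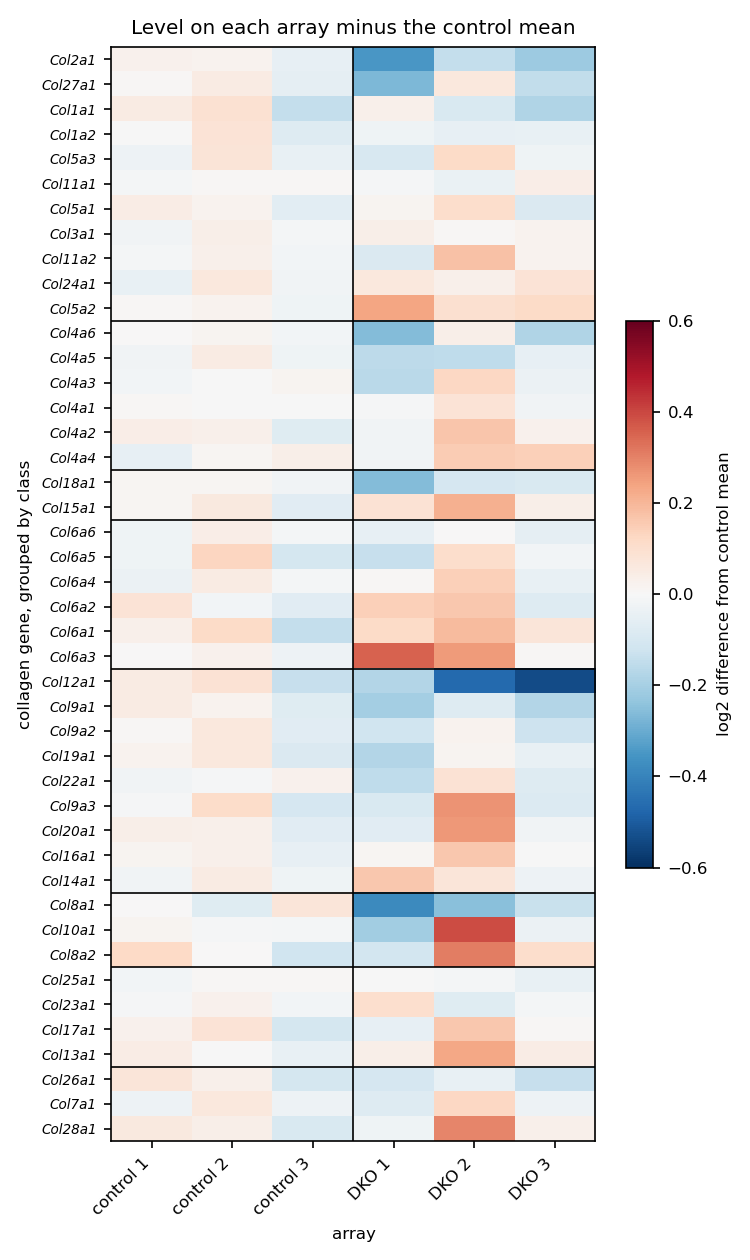
Log2 value of each of the 44 collagen genes (rows, grouped by class, lines between classes) on each of the 6 arrays (columns) minus the mean of the 3 control arrays of that gene; red is higher and blue lower. The column of DKO 2 is red for most genes, and it holds the highest value for 23 of the 44, while Col12a1 is blue on all 3 DKO arrays.

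Genes that act on collagen were read from 7 lists of 92 genes, 85 of them measured. Of these, 0 rose and 4 fell (4.71%, against 1.38% of all genes that fell and 1.03% that rose), and their median change was -0.01. The 4 were Fmod, Thbs1, Smoc2 and Ddr2, from the lists of fibril organisers, basement membrane partners and collagen receptors.

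Fmod encodes fibromodulin, a small leucine-rich proteoglycan that binds type I collagen and guides fibril assembly. It read 10.10, 10.13 and 10.02 in control and 9.22, 9.31 and 9.03 in DKO (probe 10349947). Every DKO array was far below every control. It fell 1.86-fold (-0.90, SE 0.07, interval -1.07 to -0.73, n = 3 per group, adjusted p = 0.000657). Thbs1 encodes thrombospondin 1, a matrix glycoprotein that binds collagens and activates TGF-beta. It read 11.98, 12.03 and 11.98 in control and 11.45, 11.64 and 11.58 in DKO, and fell 1.35-fold (-0.44, SE 0.06, interval -0.58 to -0.30, adjusted p = 0.00714). Both kept their calls whichever array was left out. Of the 13 fibril organisers, 2 had an unadjusted p under 0.05, the same 2 that fell. Their changes were below 0 for 10 and above 0 for 3, with a median of -0.08. Of the 11 that did not pass, the lowest were Postn, which encodes periostin (-0.24, interval -0.67 to 0.19), Prelp (-0.18, interval -0.40 to 0.05) and Ogn (-0.15, interval -0.54 to 0.24). Those above 0 were fibronectin, Fn1 (0.05, interval -0.08 to 0.18), and the proteoglycan genes Dcn (0.03, interval -0.46 to 0.52) and Lum (0.33, interval -0.20 to 0.86), both with wide intervals.

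Smoc2 encodes a secreted calcium-binding protein of basement membranes. It read 9.56, 9.60 and 9.56 in control and 8.69, 8.74 and 8.95 in DKO, so the DKO arrays again lay wholly below the controls. It fell 1.72-fold (-0.78, SE 0.07, interval -0.94 to -0.62, adjusted p = 0.000908) and kept its call whichever array was left out. It was the 1 of 12 basement membrane partners that passed, while 4 of the 12 (33.3%) had an unadjusted p under 0.05, against 12.8% of all genes. The others of the 4 were Npnt, which encodes the integrin ligand nephronectin (0.22, interval 0.08 to 0.35, adjusted p = 0.127), Agrn, which encodes the proteoglycan agrin (0.12, interval 0.01 to 0.24, adjusted p = 0.360), and Egflam (-0.17, interval -0.32 to -0.03, adjusted p = 0.258). The groups did not overlap for 6 of the 12 (50%), against 18.8% of all genes. DKO was higher in 3 (8.36% of all genes) and lower in 3 (10.4% of all genes). The 6 included Fras1 at -0.04 and Nid2 at 0.09. The paralogue Smoc1 stood at -0.05, and the linker nidogen, Nid1, at -0.04 (interval -0.17 to 0.09).

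Ddr2 is a receptor tyrosine kinase that is activated by fibrillar collagen and is expressed mainly in mesenchyme. It read 10.79, 10.78 and 10.78 in control and 10.55, 10.50 and 10.32 in DKO, and fell 1.25-fold (-0.33, SE 0.07, interval -0.48 to -0.18, adjusted p = 0.0398). This call was lost without control 1, 2 or 3 or DKO 3 (adjusted p = 0.0880 to 0.167). Ddr1, the related receptor of epithelium, stood at 0.06. The integrin gene Itga1, whose product pairs with Itgb1 to bind type IV collagen, had a change of 0.34 (SE 0.08, adjusted p = 0.0623). It was the highest change of the 10 collagen receptors measured, of which 2 had an unadjusted p under 0.05, and Itgb1 stood at -0.01.

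The genes that modify, fold, export, process and cleave collagen held 0 calls by limma in 4 lists. The unadjusted p was under 0.05 for 12.8% of all genes. Of 15 genes for hydroxylation and glycosylation of the chains, 3 had an unadjusted p under 0.05, and the largest change was that of P4ha3, a prolyl hydroxylase subunit (-0.26, SE 0.06, adjusted p = 0.0576). The subunit P4ha1 stood at 0.24 (adjusted p = 0.196). Of 11 genes for folding and export, 3 had an unadjusted p under 0.05. Mia2, which acts in the export of large cargo, stood at -0.31 (adjusted p = 0.0958). Its probe was dim, with a control mean of 5.88 against array medians of 7.87 to 7.89. The others of the 3 were Sec24d (-0.21, adjusted p = 0.0735) and Fkbp14 (0.12, adjusted p = 0.324). Serpinh1, the collagen chaperone, stood at 0.11 (interval -0.06 to 0.27). Of 12 genes for propeptide removal and crosslinking, 2 had an unadjusted p under 0.05. The largest change there was 0.18 for the procollagen protease Adamts3, read from the brightest of its 16 probes. The lysyl oxidase gene Lox stood at 0.13 (interval -0.06 to 0.33). Of 12 collagenases and their inhibitors, 1 had an unadjusted p under 0.05, the membrane-type metalloproteinase Mmp14 (-0.23, adjusted p = 0.197). Without DKO 2 the lists held 9 calls in place of 4, adding Itga1, Mia2, Mmp14, P4ha1 and P4ha3. Calls over all genes also rose without this array, from 481 to 811. With ordinary least squares in place of eBayes none of the 85 genes passed, and only 16 of all 19938 genes did.

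**Figure D4:**
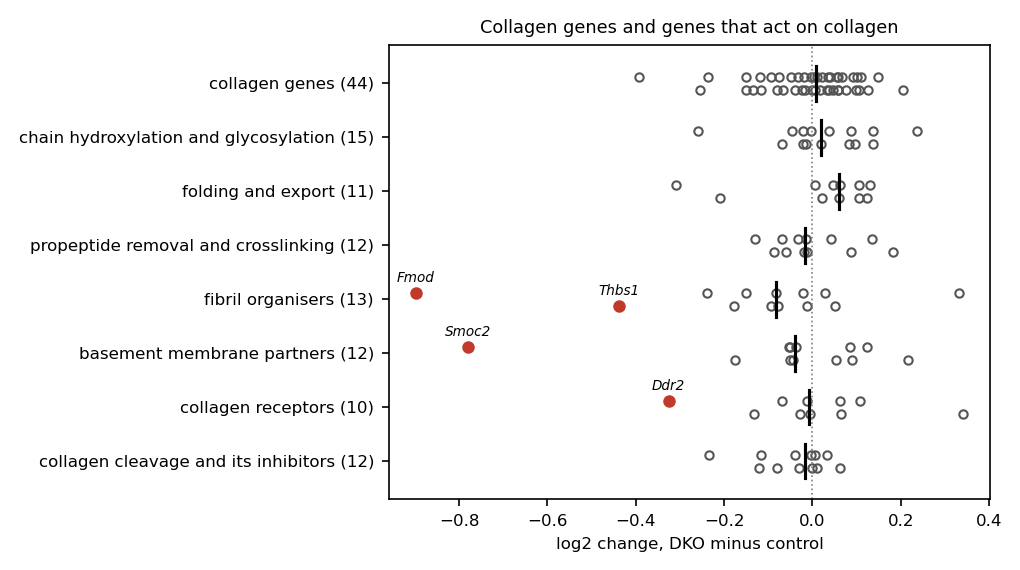
Log2 change (DKO minus control, x axis) of the 44 collagen genes and of the genes in 7 lists that act on collagen (rows, number measured in brackets); open circles did not pass the threshold, red filled circles passed it, and the black bar is the median of each row. The 4 red points, Fmod at -0.90, Smoc2 at -0.78, Thbs1 at -0.44 and Ddr2 at -0.33, lie below all 43 collagen genes other than Col12a1.

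Markers of 12 cell types were read beside the collagen genes, and limma called at least 1 member in 7 of these lists and 0 in the other 5, where 2.41% of all genes passed. For 12.8% of all genes the unadjusted p was under 0.05. Of 15 lung epithelium markers, 9 fell, among them Foxa2 of the notochord and floor plate list, and 0 rose. Their median change was -0.50. Their mean level per array was 9.45 to 9.54 in control and 8.98 to 9.12 in DKO. Of 9 smooth muscle markers, 6 fell and 1 rose. Their median change was -0.44, and their mean level was 9.51 to 9.62 in control and 9.14 to 9.30 in DKO. Of 12 mesenchyme markers, 2 rose, Fgf10 and Meox2, and Twist2 fell. The 12 changes ran from -0.28 to 1.05, with 9 below 0, 3 above 0 and a median of -0.06. The mean level was 10.50 to 10.52 in control and 10.54 to 10.61 in DKO, so it was higher although most of these genes were lower. Of 9 mesothelium markers, 2 rose, Upk1b and Gpm6a, and the mean level was 8.53 to 8.55 in control and 8.71 to 8.75 in DKO. Of 12 cardiac muscle markers, 1 rose, the atrial myosin light chain gene Myl7 (0.80), and 5 had an unadjusted p under 0.05. All 12 changes were above 0, with a median of 0.15. Without DKO 2, Tnnt2 (adjusted p = 0.0271) and Myl4 (0.0279) passed by limma as well. Of 7 neural crest and Schwann lineage markers, 1 fell, the receptor gene Erbb3 (-0.88), and 3 (42.9%) had an unadjusted p under 0.05. Their changes were below 0 for 6 and above 0 for 1, with a median of -0.12. For 10 endothelial markers limma called 0, with 2 (20%) at an unadjusted p under 0.05. Their changes were above 0 for 9 and below 0 for 1, with a median of 0.13. Limma also called 0 of 8 erythroid markers, with 2 (25%) at an unadjusted p under 0.05. Of these 8 changes, 7 were above 0 and 1 below, with a median of 0.09. Of 10 macrophage and leukocyte markers it called 0, with 4 (40%) at an unadjusted p under 0.05. Here 9 changes were below 0 and 1 above, with a median of -0.13. Without DKO 2, the erythroid gene Hbb-bh1 passed by limma (adjusted p = 0.0162). The part of these cell types in the values of Col12a1, Col8a1, Fmod, Smoc2, Thbs1 and Ddr2 was not tested.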

How the data were processed

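Total RNA (100 ng per sample) from lung buds was amplified, labelled with biotin and hybridised to Affymetrix MoGene 1.1 ST arrays, per the labels. The deposited table held 1 log2 value for each of 35556 probes on 6 arrays. Per the submitters' processing notes the authors used oligo, RMA and limma, with no version or setting given. The table does not state the log base, and base 2 was taken from RMA and from the range of 3.42 to 14.27. RMA makes array distributions alike, with array medians of 7.87 to 7.89, so a change shared by all genes cannot be seen. No detection call was given, so whether dim collagen probes lie above background was not determined. The genome build of the probes was not given in the sources used here, and no coordinates are given for them.

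The platform annotation names 1 gene for 21789 probes, several for 1621 and none for 12146. Symbols were checked through Entrez identifiers against RefSeq (GRCm38.p6), which matched 19856 of 19938 genes and changed 0 symbols. Each gene was read from its brightest probe, by the mean of the 6 arrays. Groups came from the sample titles. limma 3.58.1 (R 4.3.3, lmFit and eBayes, default settings, two-sided) was fitted over all 19938 genes with group as the only term and Benjamini-Hochberg adjustment. Alternatives were the replicate block, trend, robust or no moderation, array weights, other scalings, other probe choices, filters on dim genes and leaving out each array. The collagen genes and all lists were chosen with earlier results of these data known. Given with the value on every array were collagen genes with an unadjusted p under 0.05, the partners of their chains and genes past the threshold in the lists of genes that act on collagen. The largest change of each collagen class, and of a list without calls, was named by its change. Other collagen genes were added to complete trimers, and further list genes were chosen after their values were seen. Promoter sequences come from RefSeq, which matched 35 of the 44 collagen genes.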

Additional observations from a re-analysis of the deposited data

How the results depend on the processing

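The count of 0 collagen genes past the threshold became 1 with the replicate block, with an intensity trend and without DKO 1 (Col12a1 each time), 1 without DKO 2 and 1 without the dimmest 50% of genes (Col2a1 each time), and 4 with array weights (Col12a1, Col2a1, Col4a6 and Col9a1). It stayed at 0 in the other alternatives, so it ran from 0 to 1 over the single omissions. The array weights were 4.09 for DKO 3 and 0.275 for DKO 2, and under them 2003 of all genes passed. The filters on dim genes kept 42 and 26 of the 44 collagen genes. Of 728 values of single collagen genes under an alternative, 719 stayed on the same side of the threshold, 9 newly passed and 0 called values changed sign. The count of 4 genes in the lists of genes acting on collagen became 8 with an intensity trend, 7 without the dimmest 30% or 50% of genes, 15 with array weights and 0 with ordinary least squares. Over all genes the main fit called 481. The trend called 725, the 2 filters 603 of 13956 and 567 of 9969, and ordinary least squares 16. Over the single omissions the count in these lists ran from 3 to 9, where 197 to 811 of all genes passed. The Hdac1 call was lost at -0.28 with the replicate block (adjusted p = 0.0507), with ordinary least squares (0.0560) and over all probes (0.0644), and its change ran from -0.29 to -0.26 over the single omissions. Same-numbered control and DKO arrays did not deviate together (r of -0.06, 0.05 and 0.16), so the numbers do not pair the samples. With the block 3 genes of the lists passed. Where a call changed, the cause was not tested. Neither scaling moved the median of all genes by more than 0.01. Precision is limited by the 3 arrays per group.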

Other observations

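In the RefSeq promoter table (250 bases before to 50 after a start, GRCm38.p6), 35 of the 44 collagen genes had 38 windows. The letters GGGCGG, on either strand, were found in 23 of these 38 (60.5%) and in 35.7% of all 32851 windows. CCAAT was found in 13 (34.2%), against 37.4% of all windows, and TATAAA in 5 (13.2%), against 13.6%. Windows of genes with several starts are counted more than once, and these shares were not tested.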
